A study of Mus musculus with 6 samples.

Results

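This account concerns the genes of the matrix metalloproteases (Mmp), the ADAMTS proteases, the ADAMTS-like proteins (Adamtsl) and the tissue inhibitors of metalloproteases (Timp). The members were the probe sets annotated with exactly 1 gene symbol that begins with Mmp, Adamts, Adamtsl or Timp followed by a digit, and each gene was represented by its probe set with the highest mean. The rule found 49 of the 19938 named genes on the arrays, of which 22 were Mmp, 18 Adamts, 5 Adamtsl and 4 Timp genes. Mmp15 and Adamts2 were not analysed here.

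Expression was measured in FAPs (fibro/adipogenic progenitors), a mesenchymal cell population of skeletal muscle able to form fibroblasts and adipocytes, from wild-type male C57Bl/6 mice aged 8 to 12 weeks. In every group the tibialis anterior had been injured with 30 µL of 50% glycerol, a vivo-morpholino (VMO) had been injected 3 days later, and the cells had been isolated after a further 2 days. A VMO is an antisense oligomer, linked to a group that carries it into cells, which masks its target stretch of RNA in vivo. The control group received Control VMO, the pA-VMO group received VMOs against polyadenylation sites, and the 5'ss-VMO group received a VMO against a 5' splice site. The series is about polyadenylation inside an intron of Pdgfra, which encodes a PDGF receptor. There were 2 arrays per group, each of RNA from a pool of 4 mice. The labels name the tibialis anterior in the protocol and hindlimb muscles as the source, and no group without injury or without a VMO was analysed here.

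Metalloproteases of the Mmp family hold a zinc ion in their active site, are made as inactive precursors, and together cut fibrillar collagen, gelatin, proteoglycans and many cell surface proteins. ADAMTS proteases are secreted enzymes that trim procollagen, cut large proteoglycans or act on microfibrils, while the ADAMTS-like proteins resemble them but lack the protease domain. Timp proteins bind the active site and block it, so the balance of enzyme and inhibitor sets how fast matrix is removed. In injured muscle, stromal cells are a source of both enzymes and inhibitors while scar matrix is laid down and cleared.

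The 6 arrays hold 35556 probe sets each on a log2 scale, with array medians of 5.96 to 6.00 and correlations between arrays of 0.990 to 0.994. No array stood apart, and the arrays did not all pair by group. The highest correlation of 5'ss-VMO replicate 1 with any array was 0.9932, and that of 5'ss-VMO replicate 2 was 0.9936. Replicate 2 was thus closer to an array of another group than to replicate 1. Genes whose mean fell under the 25th percentile over all genes (log2 5.21) were not tested, which left 14953 genes. Adjusted p values are from limma with Benjamini-Hochberg adjustment over those genes, two-sided, and a gene was called when its adjusted p was under 0.05. With 2 arrays against 2, the smallest p of an exact permutation test is 0.333, and precision is limited by having so few arrays. The targeted gene Pdgfra lay between 11.24 and 11.37 throughout, in 1 probe set whose values do not show which transcript ends it reads. Of 9 FAP markers on the array all 9 passed the filter, among them Pdgfra, Dcn and Col1a1. In bulk samples such as these, fewer cells of a type and less RNA per cell cannot be told apart.

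Of the 49 members 43 passed the filter on low values. The other 6 were Mmp1a, Mmp1b, Mmp8, Mmp20, Adamts20 and Timp4, and their levels can be taken only as low. Among the 43, Mmp7 and Mmp21 had the mean of at least 1 group below that limit. Mmp7 passed through its control arrays (mean 5.37, against 5.14 for pA-VMO and 5.15 for 5'ss-VMO), and Mmp21 passed through the treated arrays (control mean 5.17). Levels of different probe sets depend on the probes as well as on the RNA, so they are given gene by gene and not ranked.

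**Figure D1:**
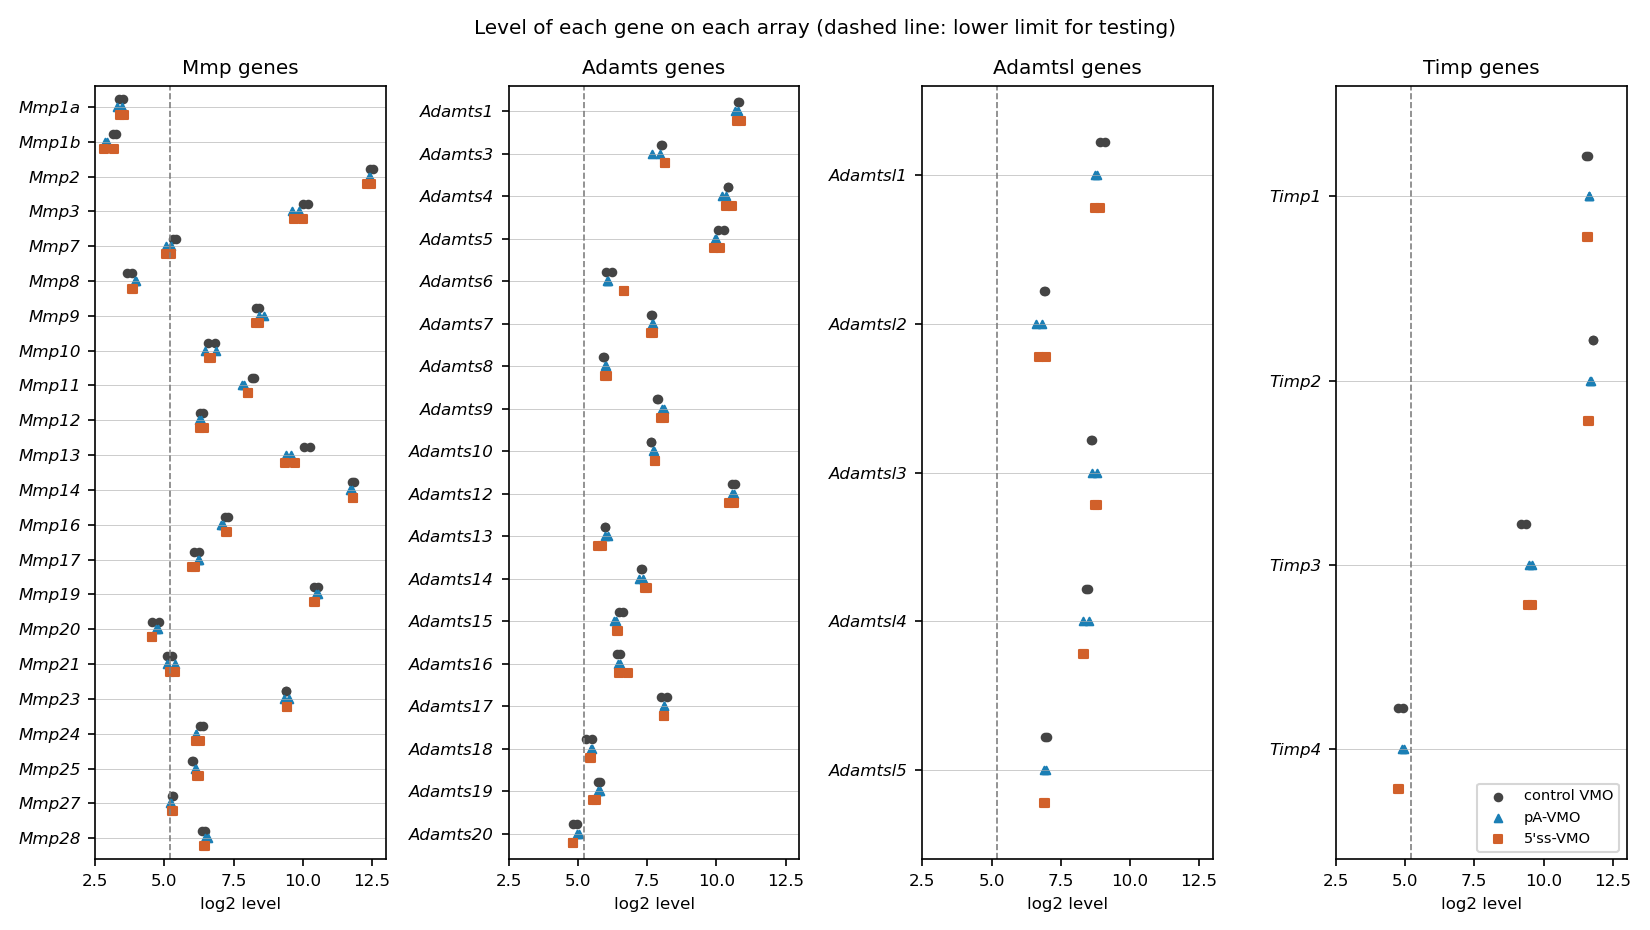
Log2 level of each gene on each of the 6 arrays, in 4 panels by subfamily; circles are control VMO, triangles pA-VMO and squares 5'ss-VMO, and the dashed line is the lower limit for testing at 5.21. The arrays of a gene lie close together for nearly all genes, with Adamts6, Mmp13 and Mmp11 showing the clearest gaps between groups.

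A single member, Adamts6, was called, in the comparison of 5'ss-VMO with control. It was higher there, where 0.582% of all genes tested were called, 0.502% as higher and 0.0803% as lower. No member was called with pA-VMO against control, where 0.00669% of genes were called, or with pA-VMO against 5'ss-VMO, where 0.0602% were, 0.0134% as higher and 0.0468% as lower. At an unadjusted p under 0.05 in limma there were 10 members for pA-VMO against control, 2 higher and 8 lower. Of all 14953 genes tested 11.4% passed that level, 930 genes as higher and 782 as lower. The 5'ss-VMO comparison with control had 11 members, 6 higher and 5 lower, beside 13.9% of all genes, 1154 higher and 925 lower. The comparison of reagents had 7 members, 2 higher and 5 lower, beside 15.9% of all genes, 1318 higher and 1063 lower. Mmp7, which passed the filter through its control arrays, is among the lower members in both comparisons with control. The median difference over the 43 members was -0.03, 0.001 and -0.04 (log2) in the 3 comparisons in that order, beside 0.01, 0.001 and 0.004 over all genes tested. Over all 49 members, the filtered ones included, 22 of 49 differences were above 0 in the first of these comparisons, 24 in the next and 21 in the last. Of all 19938 genes 11381, 9372 and 11325 were above 0 in the same order.

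A moderated F test over the 3 groups, which asks whether a gene differs among them in any way, called Adamts6 alone of the 43 members (adjusted p = 0.0328), where 0.361% of genes were called. At an unadjusted p under 0.05 it had 10 members, 5 of them Mmp, 4 Adamts and 1 Timp genes, which is 23.3% of the 43 beside 16.5% of all genes. Both comparisons with control share the control arrays, so values for pA-VMO and 5'ss-VMO are given side by side below and do not support each other. The 4 treated arrays all lay below both control arrays for 6 members, Mmp3, Mmp7, Mmp11, Mmp13, Adamts15 and Timp2, which is 14.0% of the 43 beside 8.38% of all genes tested. Among these 6, Mmp7 passed the filter through its control arrays, and Mmp3 is counted by a narrow margin. The 4 treated arrays all lay above both control arrays for 5, Mmp25, Adamts8, Adamts9, Adamts10 and Timp3, or 11.6% beside 10.3% of all genes.

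**Figure D2:**
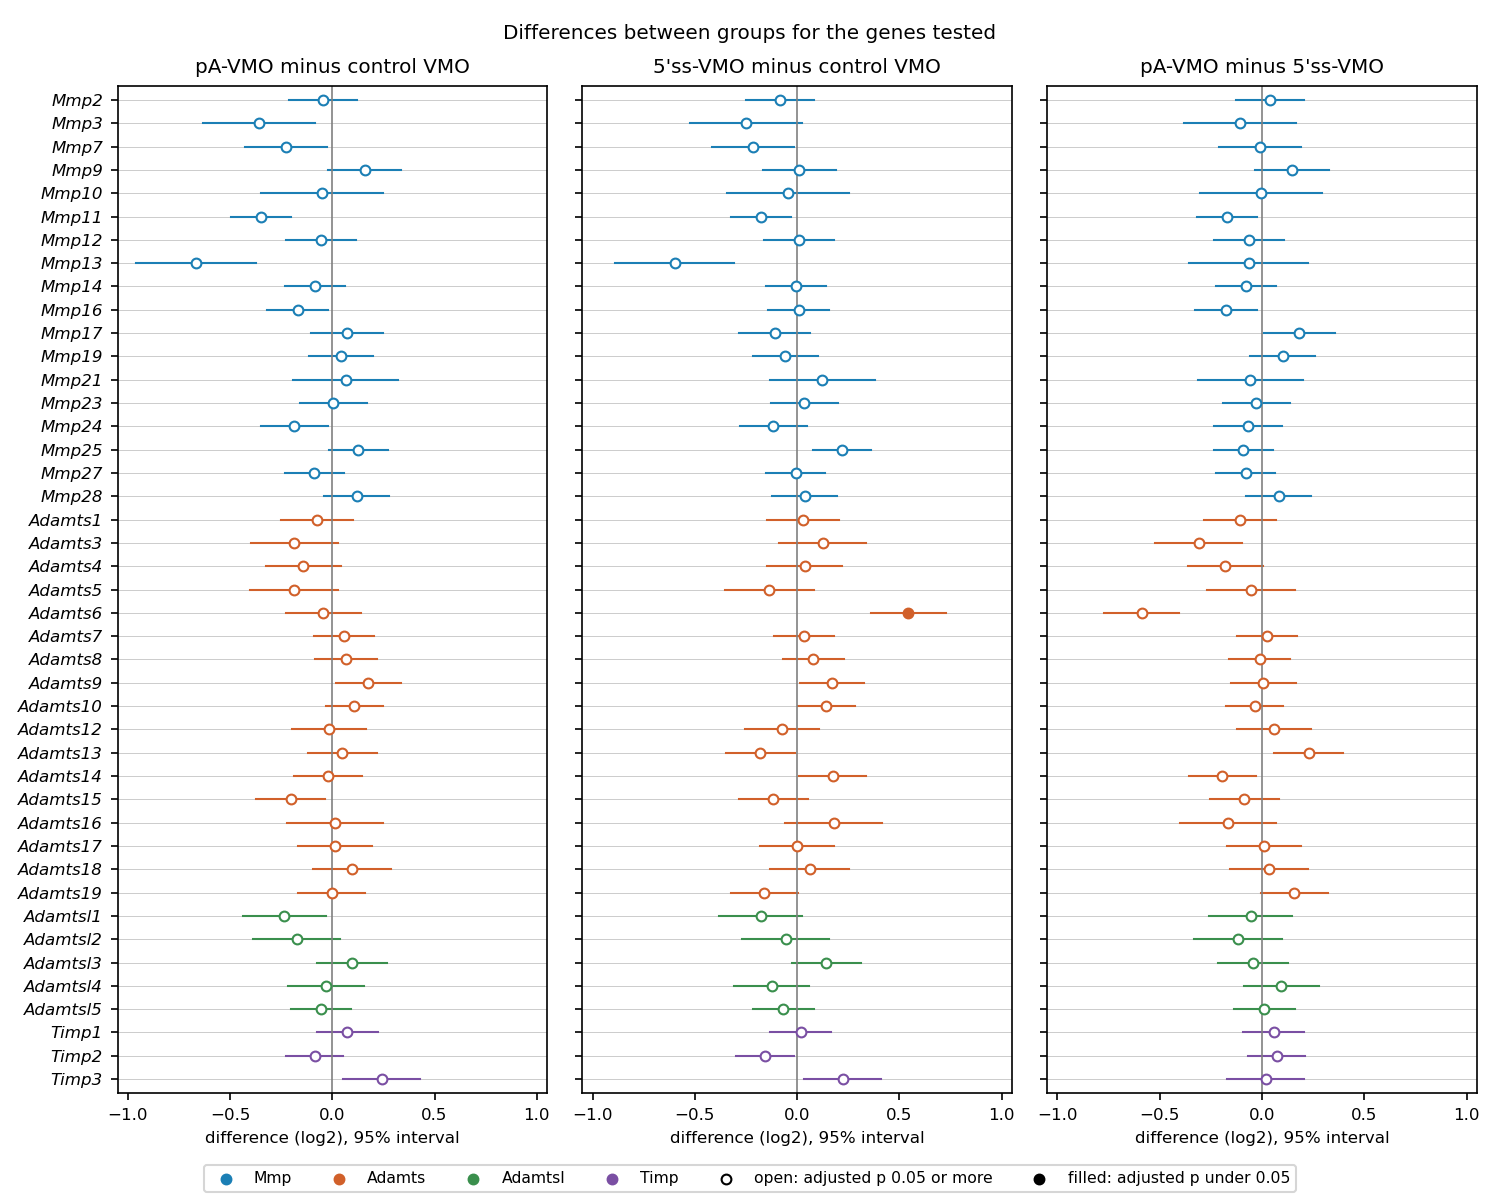
Difference between groups (log2) with its 95% interval for the 43 genes tested, in a panel for each comparison, coloured by subfamily; filled points have an adjusted p under 0.05. The 1 filled point is Adamts6 for 5'ss-VMO minus control VMO at 0.54, and most other intervals include 0.

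Adamts6 is a secreted ADAMTS protease that, with its close relative Adamts10, is known for acting on fibrillin microfibrils and latent TGF-beta binding proteins. Control arrays read 6.23 and 6.01 (log2 level), pA-VMO arrays 6.08 and 6.06, and both 5'ss-VMO arrays 6.66. Both 5'ss-VMO arrays were thus above the other 4, while the pA-VMO arrays lay between the controls. Adamts6 rose by 0.54 ± 0.08 (log2, SE, n = 2 arrays a group; 95% interval 0.36 to 0.73; 1.46-fold, adjusted p = 0.0272) with 5'ss-VMO. With pA-VMO the difference from control was -0.05 ± 0.08 (adjusted p = 0.878). Between the reagents it was -0.59 ± 0.08 for pA-VMO minus 5'ss-VMO, with an adjusted p of 0.0513 that missed the threshold.

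The call of Adamts6 was lost without control replicate 1 (0.66, adjusted p = 0.0654), without control replicate 2 (0.43, 0.109), when 5'ss-VMO replicate 1 was left out (0.54, 0.113) or replicate 2 was (0.55, 0.136), and with no filter (0.54, 0.0891). Over all settings that gave a value the difference stayed above 0, and its adjusted p ran from 0.00664 to 0.136. Its F test call was lost with no filter, with quantile normalization and in most fits with 1 array left out. Adamts6 has 1 named probe set.

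Markers of other cells of muscle moved in the same comparison. Over the 10 macrophage markers all 10 differences were above 0 with 5'ss-VMO, and C1qa and C1qc, subunits of a complement protein made by macrophages, rose by 0.39 and 0.50 (adjusted p = 0.0472 and 0.0249). The summed unlogged level of these 10 markers was 1014 to 1143 in controls, 1187 to 1206 with pA-VMO and 1311 to 1331 with 5'ss-VMO. All 8 satellite cell and myoblast markers were above control with 5'ss-VMO, with a summed level of 924 to 984 against 697 to 789 in controls and 743 to 774 with pA-VMO, and Chrna1, which encodes the alpha subunit of the muscle acetylcholine receptor, rose by 0.62 (adjusted p = 0.0283). Of the 6 endothelial markers tested 4 were above control, and Cdh5, the endothelial cadherin, rose by 0.70 (adjusted p = 0.00551); of the 7 pericyte and smooth muscle markers 6 were above control and Mcam rose by 0.42 (adjusted p = 0.0443). The summed endothelial level was 487 to 550 in controls, 547 to 559 with pA-VMO and 588 to 613 with 5'ss-VMO, and the summed pericyte level was 884 to 904, 981 to 1010 and 1058 to 1060 in the same order. Des, at 0.49 with 5'ss-VMO and not called, is in both the satellite cell and the pericyte list, so these lists are not independent. In the pA-VMO comparison, in which Adamts6 lay at -0.05, 5 of the 6 endothelial, 5 of the 7 pericyte, 8 of the 10 macrophage and 4 of the 8 satellite cell markers were above control, and none of them was called (Cdh5 at 0.29, adjusted p = 0.251). The endothelial marker Emcn was below the limit for testing, and no macrophage, satellite cell or pericyte marker was. The part of these cells in the rise of Adamts6 was not tested.

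Collagenases cut the triple helix of fibrillar collagens, and Mmp13 is the main secreted one of rodents. Its log2 level was 10.27 and 10.03 in controls, 9.38 and 9.58 with pA-VMO, and 9.73 and 9.37 with 5'ss-VMO. All 4 treated arrays lay below both control arrays, and the treated groups overlapped each other. The difference from control was -0.67 ± 0.13 (log2, SE; 95% interval -0.96 to -0.37; 1.59-fold lower) with pA-VMO and -0.60 ± 0.13 (-0.89 to -0.31; 1.51-fold lower) with 5'ss-VMO. Neither passed the test (adjusted p = 0.204 and 0.0983), nor did the F test (adjusted p = 0.0943). Mmp13 was called with 5'ss-VMO where limma used a mean trend and robust spread (adjusted p = 0.036) and where the dimmer 50% of genes were left out (adjusted p = 0.042). Of all genes tested 99.95% had a smaller difference in size for pA-VMO and 99.70% for 5'ss-VMO. Leaving out 1 array at a time, its difference ran from -0.79 to -0.54 with pA-VMO and from -0.78 to -0.42 with 5'ss-VMO.

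**Figure D3:**
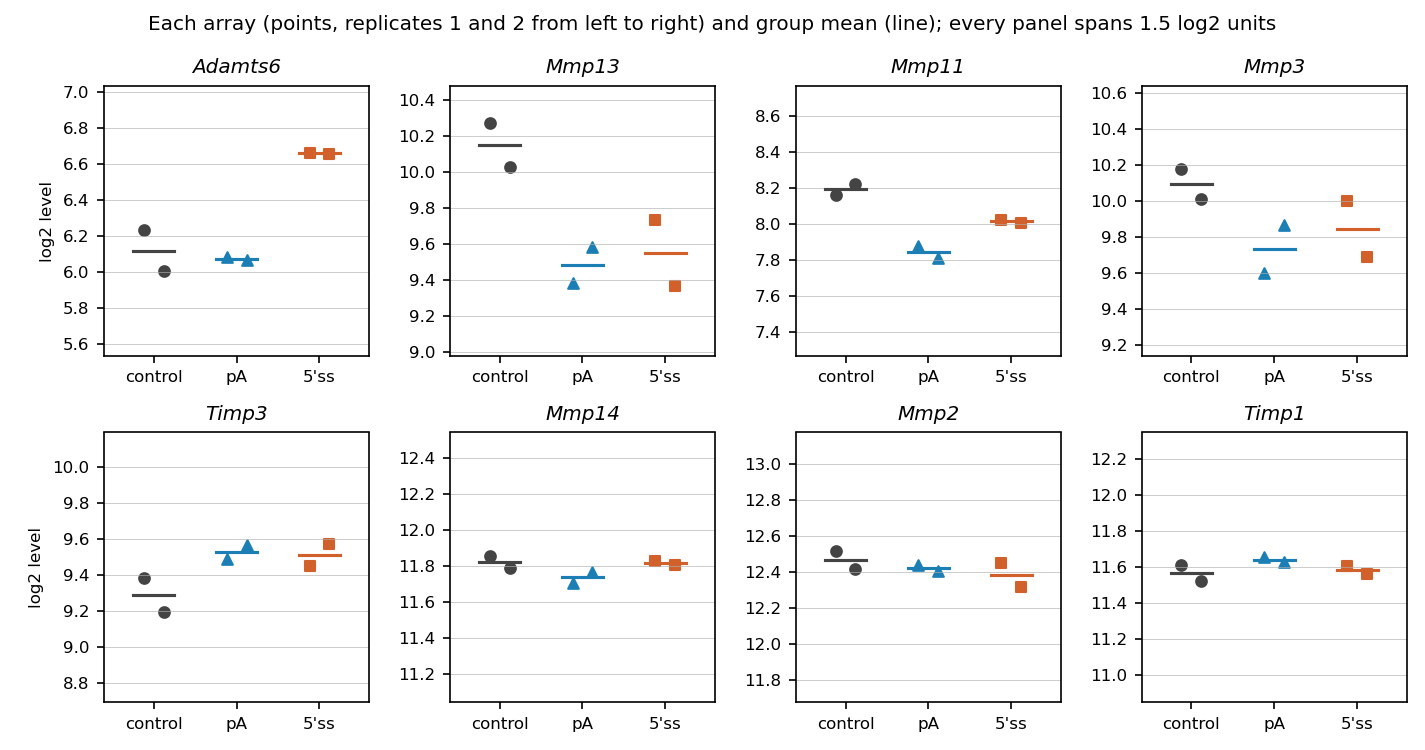
Log2 level of 8 members on each array, with replicates 1 and 2 from left to right in a group and a line at the group mean; every panel spans 1.5 log2 units. Both 5'ss-VMO arrays of Adamts6 lie at 6.66, the treated arrays of Mmp13, Mmp11 and Mmp3 lie below their controls, those of Timp3 lie above, and Mmp14, Mmp2 and Timp1 differ little.

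The remaining collagenases were dim. Mmp8, the collagenase of neutrophils, had group means of 3.72, 3.94 and 3.85 with control VMO, pA-VMO and 5'ss-VMO. Of the 10 neutrophil markers 5 were below the limit for testing, S100a8, Ly6g, Cxcr2, Retnlg and Ngp. The summed level of the 10 was 327 to 339 in controls, 352 to 371 with pA-VMO and 333 to 336 with 5'ss-VMO. The 5 tested were all above control with pA-VMO, and 3 were with 5'ss-VMO. Mmp1a and Mmp1b, the mouse relatives of human interstitial collagenase, had group means of 3.39 to 3.47 and of 2.89 to 3.20. These sister genes are alike in sequence, so their probes may read both.

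Mmp13 is the first of a run of 10 Mmp genes that stand side by side on chromosome 9 with no other protein-coding gene between them in the RefSeq gene table (GRCm38.p6). The run goes on with Mmp12, Mmp1b, Mmp3, Mmp1a, Mmp10, Mmp8, Mmp27, Mmp20 and Mmp7. Promoter windows from RefSeq (GRCm38.p6), which reach from 250 bases before to 50 after an annotated start, were found for 34 of the 49 members. The members without one were Mmp2, Mmp9, Mmp16, Mmp17, Mmp19, Adamts4, Adamts5, Adamts6, Adamts7, Adamts8, Adamts10, Adamts15, Adamts16, Adamts19 and Adamtsl1. The AP-1 motif TGANTCA, in which N is any base and which reads the same on both strands, is bound by Fos and Jun proteins and is a textbook feature of inducible Mmp promoters. It was present for 8 of the 10 genes of the run and for 0 of the other 24 members with a window, where 7.81% of all 32851 windows held it. The motif TATAAA on either strand was present for 9 of the 10 and for 3 of the other 24, beside 13.6% of all windows, and GGGCGG on either strand for 0 of the 10 and 20 of the 24, beside 35.7%. No TATAAA match overlapped an AP-1 match.

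The 100 bases before the start are shown for the genes of the run that passed the filter and hold the AP-1 motif there, since they include Mmp13, Mmp3 and Mmp7, whose treated arrays lay below control, and Mmp10 and Mmp12, whose groups overlapped. Capitals mark the AP-1 match, all are on the plus strand of GRCm38.p6, and the positions are chr9:7272414-7272513 for Mmp13, chr9:7445722-7445821 for Mmp3, chr9:7502242-7502341 for Mmp10, chr9:7347274-7347373 for Mmp12 and chr9:7691990-7692089 for Mmp7.
Mmp13: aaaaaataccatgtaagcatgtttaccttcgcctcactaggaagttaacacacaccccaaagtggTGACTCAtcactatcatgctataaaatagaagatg
Mmp3: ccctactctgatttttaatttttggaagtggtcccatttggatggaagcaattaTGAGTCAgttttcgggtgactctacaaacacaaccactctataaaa
Mmp10: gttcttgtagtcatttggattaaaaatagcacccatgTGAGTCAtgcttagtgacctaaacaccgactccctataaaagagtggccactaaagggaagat
Mmp12: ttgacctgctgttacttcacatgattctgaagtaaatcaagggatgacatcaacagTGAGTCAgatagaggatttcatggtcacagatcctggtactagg
Mmp7: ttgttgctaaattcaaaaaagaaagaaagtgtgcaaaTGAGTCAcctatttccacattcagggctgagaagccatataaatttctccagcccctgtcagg
The first base of the match lies 35 bases before the start of Mmp13, 46 before that of Mmp3, 63 before those of Mmp10 and Mmp7 and 44 before the later of 2 annotated starts of Mmp12. A match is a description of the letters and not a measured site. Mmp11 and Timp2, whose 4 treated arrays lay below both control arrays as well, have a window without the AP-1 motif. A link between the motif and the values was not tested.

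**Figure D4:**
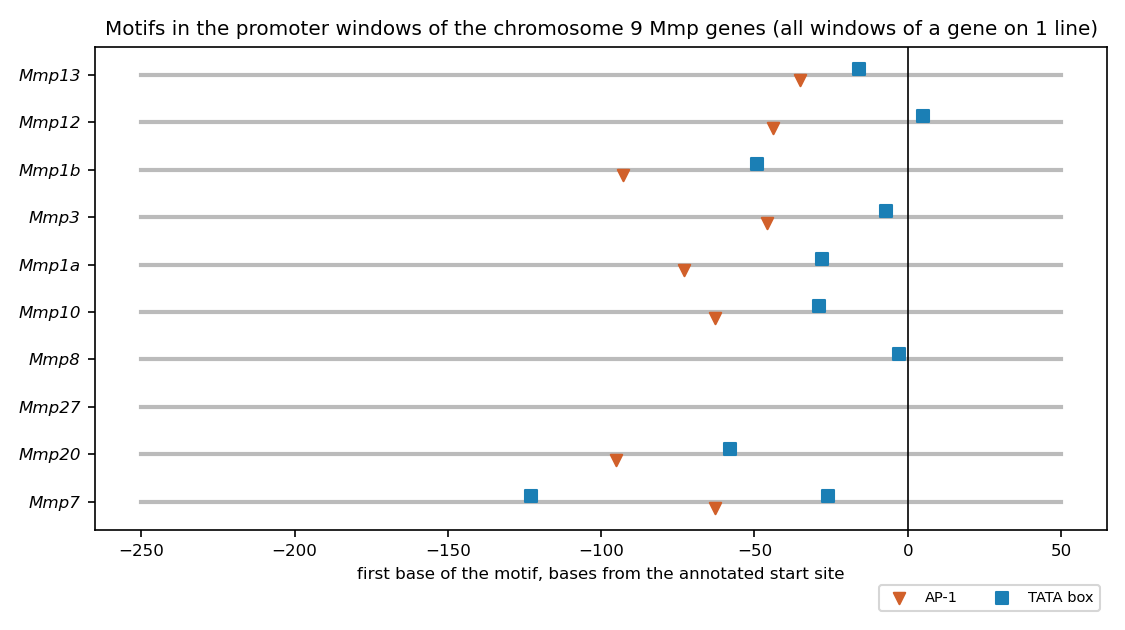
Positions of AP-1 (TGANTCA) and TATAAA matches in the promoter windows of the 10 Mmp genes of the run on chromosome 9, in chromosome order from top to bottom, as bases from the annotated start; grey bars are the windows, and Mmp12 and Mmp7 have 2 windows drawn on 1 line. AP-1 matches stand before the start in 8 of the 10 genes.

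Stromelysins cut proteoglycans and other matrix proteins and activate precursors of other Mmp enzymes. Mmp3 lay at 10.18 and 10.01 in controls, at 9.60 and 9.87 with pA-VMO and at 9.99996 and 9.69 with 5'ss-VMO. The treated arrays were all lower than both controls, the highest of them by a narrow margin. The differences from control were -0.36 ± 0.12 (log2, SE, adjusted p = 0.337) and -0.25 ± 0.12 (adjusted p = 0.398), and neither passed the test. With 1 array left out the former ran from -0.49 (without pA-VMO replicate 2) to -0.22 (without pA-VMO replicate 1), and the latter was -0.09 when 5'ss-VMO replicate 2 was the array left out. Mmp10, which stands close to Mmp3 in sequence and on the chromosome, differed from control by -0.05 for pA-VMO and -0.04 for 5'ss-VMO (adjusted p = 0.922 and 0.907), and its arrays differed within groups by up to 0.40. Probes of Mmp3 and Mmp10 may read both genes, so the share of each is uncertain.

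Mmp11, a stromal stromelysin that leaves the cell in active form after furin has cut it, had values of 8.16 and 8.23 in controls, 7.88 and 7.81 with pA-VMO and 8.03 and 8.01 with 5'ss-VMO. The 3 groups did not overlap, with control highest and pA-VMO lowest. The difference from control was -0.35 ± 0.07 (log2, SE; 1.27-fold lower, adjusted p = 0.204) with pA-VMO and -0.18 ± 0.07 (adjusted p = 0.288) with 5'ss-VMO. The reagents differed by -0.17 ± 0.07 (adjusted p = 0.249), and the F test had an adjusted p of 0.102. Mmp11 was called with pA-VMO under a mean trend and robust spread (adjusted p = 0.0336), and by the F test there (0.0248) and with the stricter filter (0.0424).

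Gelatinases cut denatured collagen and basement membrane collagen. Mmp2, the gelatinase of stromal cells, lay at 12.52 and 12.42 in controls, 12.44 and 12.41 with pA-VMO and 12.45 and 12.32 with 5'ss-VMO. The 3 groups overlapped, and the 95% intervals of the differences from control were -0.21 to 0.12 and -0.25 to 0.08 (adjusted p = 0.853 and 0.645). Mmp9, the gelatinase also released by neutrophils and macrophages, was at 8.40 and 8.30, then 8.43 and 8.59, then 8.32 and 8.41 in the same order of groups. It lay at 0.16 ± 0.08 with pA-VMO (adjusted p = 0.491) and at 0.01 ± 0.08 with 5'ss-VMO (adjusted p = 0.969). Lcn2, whose product binds Mmp9, differed by -0.65 with pA-VMO, at an adjusted p of 0.204, and by 0.0039 for 5'ss-VMO.

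Membrane-bound Mmp enzymes act at the cell surface. Mmp14, which activates the precursor of Mmp2 together with Timp2, was at 11.85 and 11.79 in controls, 11.71 and 11.77 with pA-VMO and 11.83 and 11.81 with 5'ss-VMO. Its differences from control were -0.09 ± 0.06 (adjusted p = 0.662) and -0.01 ± 0.06 (adjusted p = 0.977), and the latter changed sign in 3 of 14 settings. Mmp16, another transmembrane member, had 7.28 and 7.20 in controls, 7.04 and 7.10 with pA-VMO and 7.26 and 7.24 with 5'ss-VMO. Both pA-VMO arrays were below the other 4, at -0.17 ± 0.07 from control (adjusted p = 0.395) and -0.18 ± 0.07 from 5'ss-VMO (adjusted p = 0.247).

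Mmp24, also a transmembrane enzyme, lay at 6.28 and 6.38, then 6.14 on both pA-VMO arrays, then 6.15 and 6.28 with 5'ss-VMO. Its differences from control were -0.19 ± 0.07 with pA-VMO (adjusted p = 0.395) and -0.12 ± 0.07 with 5'ss-VMO (adjusted p = 0.518). Mmp25, held to the membrane by a lipid anchor and known from neutrophils, was at 6.02 and 5.98 in controls, 6.12 and 6.14 with pA-VMO and 6.19 and 6.24 with 5'ss-VMO. Its 3 groups did not overlap, with 5'ss-VMO highest, and the differences from control were 0.13 ± 0.06 (adjusted p = 0.484) and 0.22 ± 0.06 (adjusted p = 0.2). Mmp17, the other lipid-anchored member, had 6.08 and 6.24, 6.22 and 6.25, and 6.11 and 5.99; its largest difference was 0.18 ± 0.08 for pA-VMO minus 5'ss-VMO (adjusted p = 0.293).

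Mmp7, a short Mmp without the hemopexin domain, lay at 5.30 and 5.44 in controls, 5.06 and 5.22 with pA-VMO and 5.23 and 5.07 with 5'ss-VMO. These values straddle the limit for testing, and the differences of -0.23 ± 0.09 and -0.22 ± 0.09 did not pass (adjusted p = 0.393 and 0.324). The Mmp genes that passed the filter and are not given array by array were Mmp10, Mmp12 (the elastase of macrophages), Mmp19, Mmp21, Mmp23, Mmp27 and Mmp28. Their 7 differences from control ran from -0.09 to 0.12 with pA-VMO and from -0.06 to 0.12 with 5'ss-VMO, with no adjusted p below 0.516 in any of the 3 comparisons. The group means of Mmp12 were 6.30 to 6.36, beside the macrophage marker values given above. Mmp20, the protease of tooth enamel, had group means of 4.55 to 4.74, below the limit.

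Of the 18 Mmp genes tested, 8 had both pA-VMO arrays below both control arrays, 44.4% of them beside 18.8% of all genes, and 3 had both above (16.7% beside 24.1%). With 5'ss-VMO the counts were 4 below and 2 above, or 22.2% and 11.1%, beside 21.5% and 23.2% of all genes. Mmp7, which passed the filter through its control arrays, is among the 8 and the 4; over all 22 Mmp genes, the dim ones included, 9 lay below with pA-VMO, or 40.9% beside 16.6% of all 19938 genes. The median difference of the 18 was -0.05 for pA-VMO and -0.03 for 5'ss-VMO.

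The proteoglycan-cutting ADAMTS enzymes cleave versican and aggrecan. Adamts1, one of these, was at 10.77 and 10.81 in controls, 10.66 and 10.77 with pA-VMO and 10.90 and 10.74 with 5'ss-VMO, and its groups overlapped (adjusted p = 0.757 and 0.891 against control). Adamts4 lay at 10.41 and 10.42 with control VMO, 10.22 and 10.33 with pA-VMO and 10.55 and 10.36 with 5'ss-VMO. Both pA-VMO arrays of Adamts4 were below the other 4, at -0.14 ± 0.08 from control (adjusted p = 0.539). Adamts5 had 10.26 and 10.06, 9.95 and 10.0001, and 10.14 and 9.91 in the 3 groups, with differences of -0.19 ± 0.10 (adjusted p = 0.495) and -0.14 ± 0.10 (adjusted p = 0.568).

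Adamts9, the most conserved of this branch, had 7.87 and 7.90 in controls, 8.03 and 8.10 with pA-VMO and 8.00 and 8.11 with 5'ss-VMO. Its treated arrays were all above control, at 0.18 ± 0.07 and 0.17 ± 0.07 (adjusted p = 0.395 and 0.326), and the 5 further probe sets of Adamts9 had the same sign in both comparisons. Adamts15 went the other way, from 6.62 and 6.47 to 6.39 and 6.30 with pA-VMO and 6.45 and 6.41 with 5'ss-VMO, at -0.20 ± 0.07 and -0.12 ± 0.07 (adjusted p = 0.369 and 0.527). Adamts8 differed from control by 0.07 and 0.08, and Adamts20 had group means of 4.81 to 4.99, below the limit.

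The amino-terminal propeptide of procollagen is removed by Adamts3 and Adamts14. Adamts3 lay at 8.04 and 7.99 in controls, 7.68 and 7.98 with pA-VMO and 8.15 and 8.13 with 5'ss-VMO, so the 3 groups did not overlap although pA-VMO replicate 2 nearly met the controls. The reagents differed by -0.31 ± 0.09 for pA-VMO minus 5'ss-VMO (adjusted p = 0.175), which was -0.16 without pA-VMO replicate 1 and -0.46 without pA-VMO replicate 2. This value is of 1 of the 16 probe sets of Adamts3, and the others ran from -0.34 to 0.11 in the same comparison. Those closest to it in level (log2 7.95 to 7.97) lay at -0.02, -0.12 and -0.04. Adamts14 had 7.29 and 7.31, 7.20 and 7.35, and 7.44 and 7.51; both 5'ss-VMO arrays were the highest, at 0.17 ± 0.07 from control (adjusted p = 0.336) and with -0.19 ± 0.07 for pA-VMO minus 5'ss-VMO (adjusted p = 0.247).

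Adamts10, the close relative of Adamts6, was at 7.62 and 7.63 in controls, 7.72 and 7.74 with pA-VMO and 7.76 and 7.77 with 5'ss-VMO. Its treated arrays were all above control by small amounts, 0.11 ± 0.06 and 0.14 ± 0.06 (adjusted p = 0.552 and 0.349). The genes thus had different values in the comparison in which Adamts6 was called, 0.54 and 0.14, and that difference between genes was not tested. Adamts13, which cuts von Willebrand factor, lay at 5.98 on both control arrays, 6.07 and 5.99 with pA-VMO and 5.88 and 5.72 with 5'ss-VMO. It differed by -0.18 ± 0.07 from control with 5'ss-VMO (adjusted p = 0.332) and by 0.23 ± 0.07 between pA-VMO and 5'ss-VMO (adjusted p = 0.198). Adamts19, a member of little known function, had 5.71 and 5.81, 5.80 and 5.71, and 5.55 and 5.65, with -0.16 ± 0.07 for 5'ss-VMO against control (adjusted p = 0.367).

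The other Adamts genes that passed the filter were Adamts7 and Adamts12, which cut cartilage oligomeric matrix protein, and Adamts8, Adamts16, Adamts17 and Adamts18. These 6 genes differed from control by -0.02 to 0.09 with pA-VMO and by -0.07 to 0.18 with 5'ss-VMO, with no adjusted p below 0.474. Of the 17 Adamts genes tested 12 lay above control with 5'ss-VMO and 8 with pA-VMO, with medians of 0.04 and -0.003. Of all 14953 genes tested 7542 lay above control with 5'ss-VMO and 8252 with pA-VMO. Both 5'ss-VMO arrays were above both control arrays for 6 of the 17, or 35.3% beside 23.2% of all genes, and both below for 3, or 17.6% beside 21.5%. With pA-VMO the counts were 5 above and 4 below, or 29.4% and 23.5%, beside 24.1% and 18.8% of all genes. Over all 18 Adamts genes the 5'ss-VMO shares were 33.3% above and 22.2% below, beside 20.1% and 22.4% of all 19938 genes.

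ADAMTS-like proteins sit in the matrix, and several bind fibrillin. Adamtsl1 lay at 9.10 and 8.93 in controls, 8.73 and 8.83 with pA-VMO and 8.94 and 8.74 with 5'ss-VMO, at -0.23 ± 0.09 and -0.18 ± 0.09 from control (adjusted p = 0.381 and 0.412). Adamtsl2, which binds a latent TGF-beta binding protein, had 6.91 and 6.88, 6.62 and 6.82, and 6.96 and 6.72, with -0.17 ± 0.09 for pA-VMO (adjusted p = 0.522). Adamtsl3 was at 8.64 and 8.61, 8.64 and 8.81, and 8.73 and 8.80, and both 5'ss-VMO arrays were above control by 0.14 ± 0.08 (adjusted p = 0.433). Adamtsl4, a microfibril protein needed to hold the lens, had 8.40 and 8.49, 8.31 and 8.52, and 8.30 and 8.34, with -0.13 ± 0.08 for 5'ss-VMO (adjusted p = 0.533). Adamtsl5 differed from control by -0.06 and -0.07. None of the 5 was called, and 4 of 5 differences were below 0 in each comparison with control.

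Among the inhibitors, Timp1, which is induced in injured tissue, lay at 11.61 and 11.52 in controls, 11.65 and 11.62 with pA-VMO and 11.60 and 11.56 with 5'ss-VMO. Its differences of 0.07 ± 0.07 and 0.02 ± 0.07 had 95% intervals of -0.08 to 0.22 and -0.13 to 0.17 (adjusted p = 0.713 and 0.937). Timp2, the partner of Mmp14, had 11.79 and 11.77, 11.68 and 11.71, and 11.63 and 11.61. Its groups did not overlap, with control highest and 5'ss-VMO lowest, yet the differences were -0.09 ± 0.06 and -0.16 ± 0.06 (adjusted p = 0.644 and 0.314).

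Timp3, which stays bound to the matrix and also inhibits aggrecan-cutting ADAMTS enzymes, was at 9.38 and 9.19 in controls, 9.49 and 9.57 with pA-VMO and 9.45 and 9.57 with 5'ss-VMO. The treated arrays were all above both controls, at 0.24 ± 0.08 (95% interval 0.05 to 0.43, adjusted p = 0.35) and 0.22 ± 0.08 (0.04 to 0.41, adjusted p = 0.292). Without control replicate 2, the lower of the controls, these were 0.15 and 0.13. Timp4 lay at 4.74 and 4.92, 4.97 and 4.87, and 4.72 and 4.78, below the limit on every array. No inhibitor was called in any of the 3 comparisons.

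Other genes of matrix breakdown were read from 8 lists of proteases, regulators, substrates and inducers. None of their tested members was called with pA-VMO against control or between the reagents, and 1 was called with 5'ss-VMO against control. That gene was Dpp4, a surface peptidase, which fell by 0.52 ± 0.08 (adjusted p = 0.0318). Its control arrays read 7.74 and 7.64, the pA-VMO arrays 7.15 and 7.32 and the 5'ss-VMO arrays 7.12 and 7.23. The list of other matrix peptidases to which it belongs had 0 higher and 1 lower of 14 tested.

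In the plasminogen system, whose proteases activate Mmp precursors, 0 of 12 were called. Thbd, the thrombin receptor thrombomodulin, lay at 0.22 for pA-VMO and -0.30 for 5'ss-VMO (adjusted p = 0.354 and 0.161), and Serpinb2, an inhibitor of plasminogen activators, at 0.73 and 0.50 (adjusted p = 0.251 and 0.275). Of the ADAM sheddases and their cofactors 0 of 12 were called, with the cofactors Rhbdf1 and Rhbdf2 both at 0.18 with 5'ss-VMO (adjusted p = 0.267 and 0.314). Among astacins and procollagen processing genes 0 of 5 were called; Pcolce2, an enhancer of procollagen processing, lay at -0.20 with 5'ss-VMO (adjusted p = 0.257) and Tll2 at -0.13 (adjusted p = 0.424). The cathepsins and cystatins had 0 of 16 called, with Ctsf at -0.29 and -0.26 (adjusted p = 0.251 and 0.188) and Ctss, a cathepsin of macrophages, at 0.30 and 0.42 (adjusted p = 0.351 and 0.148).

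Of 18 tested regulators and activators of Mmp enzymes 0 were called, with Pcsk5, a proprotein convertase, at -0.18 and -0.23 (adjusted p = 0.443 and 0.265). Among 18 substrates and partners of ADAMTS proteins 0 were called. Comp, the cartilage oligomeric matrix protein cut by Adamts7 and Adamts12, lay at -0.38 for pA-VMO and -0.27 for 5'ss-VMO (adjusted p = 0.204 and 0.139), and the brain proteoglycan gene Bcan at 0.23 and -0.23 (adjusted p = 0.443 and 0.362). The inducers of Mmp genes had 0 of 16 called and a median of -0.11 with pA-VMO, 0.01 with 5'ss-VMO and -0.15 for pA-VMO minus 5'ss-VMO. Il1b, a cytokine that induces Mmp genes, lay at 0.50 and 0.64 (adjusted p = 0.235 and 0.0524). Jun, a subunit of AP-1, lay at 11.25 and 11.29 in controls, 11.07 and 11.02 with pA-VMO and 11.38 and 11.41 with 5'ss-VMO, so its 3 groups did not overlap; the differences from control were -0.22 and 0.13 (adjusted p = 0.282 and 0.414) and the reagents differed by -0.35 (adjusted p = 0.0687).

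Of the remaining cell markers, 0 were called in any comparison among 9 FAP, 5 neutrophil, 6 muscle fibre, 5 tenocyte, 2 lymphocyte and 3 Schwann cell markers tested. The FAP markers had a median difference from control of -0.02 for pA-VMO and -0.03 for 5'ss-VMO, and a summed level of 36843 to 38468 in controls, 36251 to 36543 with pA-VMO and 35643 to 36550 with 5'ss-VMO. Within the list Lum, the gene of lumican, differed by -0.19 and -0.33 (adjusted p = 0.314 and 0.0636) and the surface protein gene Cd34 by -0.25 and -0.21 (adjusted p = 0.284 and 0.242). In the other lists Mpo and Camp, of neutrophils, lay at 0.04 and 0.29 with pA-VMO and at -0.27 and 0.17 with 5'ss-VMO, and Acta1 and Tnnc2, of muscle fibres, at -0.06 and 0.21 and at 0.23 and 0.26. Tnmd and Fmod, of tenocytes, lay at -0.43 and 0.13 and at -0.02 and 0.15, Cd3e and Nkg7, of lymphocytes, at 0.24 and -0.01 and at -0.09 and -0.08, and S100b and Sox10, of Schwann cells, at -0.03 and -0.14 and at -0.19 and -0.22. The part of such shifts in the values of Mmp13, Mmp11 and Mmp3 was not tested.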

How the data were processed

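RNA of the 6 pools was measured on Affymetrix Mouse 1.0 ST arrays, whose number limits the precision. The authors deposited log2 values from RMA in Affymetrix Expression Console, per the submitters' processing notes; RMA subtracts background, equalises array distributions and merges probes, so shifts in total RNA are lost and changes of dim genes are compressed. The sources used here give neither its settings nor its version, and scan batches were not analysed here. The platform annotation gave 1 symbol to 21789 of 35556 probe sets, several to 1621 and none to 12146; unnamed and multiply named probe sets were left out. All 49 members matched the RefSeq gene table by gene ID.

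The fit used limma 3.58.1 (R 4.3.3) over all 6 arrays, a mean per group and no block (3 residual and 6.06 prior degrees of freedom), on 14953 genes at or above the 25th percentile, with eBayes without trend, and was also tested on simulated data. Alternatives were other filters, scalings, spread models, probe set rules, a replicate block and leaving out each array. Values by array are given for 30 members: all Timp genes, called members, those with the smallest F test p in each subfamily (up to 8, 8 and 4), and 8 with textbook roles. From each of 18 lists the called genes were named, or else up to 2 with the smallest F test p. Members and lists were chosen with earlier results of these data known.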

Additional observations from a re-analysis of the deposited data

How the results depend on the processing

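Under every alternative that gave a value, Adamts6 lay above control with 5'ss-VMO and Mmp13 and Mmp11 lay below control with both reagents. The number of members called for 5'ss-VMO against control was 0 with no filter, 2 with a mean trend and robust spread, and 0 to 1 with 1 array left out; for pA-VMO against control it was 1 with trend and robust spread. Between the reagents it was 1 with trend and robust spread, with the replicate block (Adamts6, adjusted p = 0.0401), with the mean of a gene's probe sets, and with only the 4 arrays of the 2 groups, and 0 to 1 with 1 array left out. By the F test it was 0 with no filter, 2 with the stricter filter at the 50th percentile (Mmp13 and Mmp11), 0 with quantile normalization, 3 with trend and robust spread, and 0 to 1 with 1 array left out. Adamts6 had no value under the stricter filter, which removed it.

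Over all genes, the calls for pA-VMO against control numbered 0 with no filter, 49 with trend and robust spread and 0 to 2 with 1 array left out. For 5'ss-VMO against control they numbered 24, 265 and 8 to 76 in that order, and 181 with the stricter filter. Between the reagents there were 3, 186 and 1 to 18, with 102 under the stricter filter, 5 with quantile normalization, 23 with the replicate block and 15 with the mean of the probe sets. The F test gave 6, 299 and 6 to 54, with 170 under the stricter filter and 17 with quantile normalization. The causes were not tested. No effect shared by replicate number was seen: same-numbered deviations correlated at -0.10, 0.02 and -0.03, and the block changed no other call of a member. These values do not show whether the samples were handled in pairs. A group left with 1 array was assumed to vary like the others. Of the differences of named members that no setting called, 42 values changed sign under an alternative, and 0 called differences did. Centring each array on its median moved the median of all genes for 5'ss-VMO against control from 0.001 to -0.02 (log2), and with 2 arrays a group small differences of dim genes are beyond the reach of these data.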

Other observations

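Adamts3, Adamts9, Adamts17 and Adamtsl1 have several named probe sets. For Adamts3 the probe set used is 1 of 16, and 13 of the 15 others shared its sign for pA-VMO against control and 14 shared it for 5'ss-VMO against control. Adamts17 has 5, of which 1 of the 4 not used shared the sign for pA-VMO and 2 did for 5'ss-VMO, while the probe set used differed from control by 0.01 and 0.001. For Adamts9 all 5 others, and for Adamtsl1 the 1 other, shared the sign in both comparisons.

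Besides the run on chromosome 9, members neighbour each other as Adamts1 and Adamts5 on chromosome 16 and as Adamts15 and Adamts8 on chromosome 9. With pA-VMO against control the first pair lay at -0.08 and -0.19 and the second at -0.20 and 0.07; with 5'ss-VMO they lay at 0.03 and -0.14 and at -0.12 and 0.08. None of these values was called.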
